A study of Mus musculus with 8 samples.

Results

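Genes of chromatin modifiers and nucleosome remodellers held 130 of the 5521 Foxp3 sites listed in the deposited files. Each site was given to the protein-coding RefSeq gene whose body, extended by 5 kb on both sides, held its centre, with a gene that holds the centre itself taken first and the shortest gene taken among several. A site outside all such windows went to the nearest gene end within 100 kb. Kept were sites of genes with the family symbols Chd, Smarc, Arid, Kmt, Setd, Kdm, Kat, Ncoa, Hdac, Ncor, Brd, Tet and Dnmt. The rule used gene names and positions, and no measured value, but it was chosen with earlier results of these data known. The 130 sites fell at 48 of the 111 annotated genes with such symbols.

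The proteins of these genes set how DNA is packed. Remodellers of the Chd and Smarc families use ATP to slide or evict nucleosomes, and several Arid proteins are subunits of the same SWI/SNF complexes. Many Kmt and Setd proteins put methyl groups on histone lysines and Kdm enzymes take them off. Kat enzymes and the Ncoa coactivators work with histone acetylation, and Hdac enzymes with the Ncor corepressors remove it. Tet enzymes oxidise methylated cytosine, and in regulatory T (Treg) cells they keep an intronic enhancer of Foxp3 free of methylation. The symbol rule also takes in members with other known roles, such as Arid5a, which is best known as an RNA-binding protein.

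Foxp3 is the X-linked forkhead transcription factor that defines Treg cells, and CUT&Tag was used to map where it sits: a transposase (pAG-Tn5) held at the antibody cuts and tags the DNA around it. Treg cells were sorted as CD4+hCD2+GFP- and used fresh. They came from spleen and lymph nodes of C57BL6/J mice, whose age the labels do not give. The WT mice carried Foxp3WT-IRES-hCD2 and Foxp3-IRES-GFP, and the R397W mice carried Foxp3R397W-IRES-hCD2 and the same GFP allele, so in both genotypes the sort took cells using the hCD2 allele, while the mice also carried an unaltered Foxp3 allele marked by GFP. R397W is an amino acid change in the forkhead domain, the DNA-binding part of Foxp3. Anti-Foxp3 rabbit polyclonal antibody or normal rabbit IgG was used, which gave 4 groups of 2 libraries. All libraries received spike-in nuclei. The labels do not say whether libraries 1 and 2 of a group came from separate mice, so the p-values measure only the spread between libraries, which may be technical. Each site belongs to 1 of 3 classes of the authors, called common, cTreg-specific and eTreg-specific, where eTreg stands for effector Treg.

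Values below are normalised read counts at a site, each a whole number of reads times a factor of its library and site class. The 8 libraries had 111274 to 394196 reads in listed sites. A value of 0 is a site without a read, and 3 reads in a library, the limit that a count of 0 allows, were worth 1.15 to 7.88. Such limits cover counting error only. The 4 Treg markers Foxp3, Il2ra, Ctla4 and Ikzf2 all had listed sites, 22 in all, while B cell, myeloid and CD8 marker genes had 0. Since the list was selected for Foxp3 binding and expression was not measured, these counts do not measure purity.

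Of the 130 sites, 5 overlapped a RefSeq promoter in the reference table, those of Hdac5, Smarcd1, Chd9, Kmt2a and Kdm5c. The 250 bases before the start are shown for 3 of them, which had the highest WT Foxp3 means of these 5. Hdac5 (chr11:102230173-102230422, minus strand) overlapped its site by 191 bases, and Kmt2a (chr9:44881290-44881539, minus strand) and Kdm5c (chrX:152232977-152233226, plus strand) lay wholly within theirs. Sequences are from RefSeq, build GRCm38.p6, written 5′ to 3′ in the direction of transcription. Capitals mark a match to TGANTCA, the AP-1 and BATF element, searched on both strands.
Hdac5: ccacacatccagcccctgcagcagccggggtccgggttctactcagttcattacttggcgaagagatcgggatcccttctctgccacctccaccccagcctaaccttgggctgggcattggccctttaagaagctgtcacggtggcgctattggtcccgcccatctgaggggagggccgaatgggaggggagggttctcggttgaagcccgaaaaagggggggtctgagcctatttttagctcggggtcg
Kmt2a: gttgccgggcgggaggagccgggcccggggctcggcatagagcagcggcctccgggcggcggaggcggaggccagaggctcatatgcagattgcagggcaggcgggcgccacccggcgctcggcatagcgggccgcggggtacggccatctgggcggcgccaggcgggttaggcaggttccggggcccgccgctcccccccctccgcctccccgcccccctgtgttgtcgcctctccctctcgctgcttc
Kdm5c: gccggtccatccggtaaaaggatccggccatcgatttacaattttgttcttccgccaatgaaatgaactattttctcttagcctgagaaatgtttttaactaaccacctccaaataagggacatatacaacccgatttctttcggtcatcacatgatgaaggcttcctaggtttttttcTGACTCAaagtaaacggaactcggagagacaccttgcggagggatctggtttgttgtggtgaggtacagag
The Kdm5c match began 71 bases before the start. None of the 5 upstream sequences held the forkhead motif TGTTTAC on either strand. Over all 32851 promoters in the table, taken from 250 bases before to 50 after the start, 3.65% held the forkhead motif and 7.81% the AP-1 motif. Among the 651 promoters that overlapped any listed site these shares were 8.60% and 6.45%. The absence of a match says only that these letters were not in these windows. The table held promoters of 32 of the 48 genes. Base composition differed between the windows: G and C made up 76.8% of the Kmt2a bases, 60.8% of those of Hdac5 and 43.6% of those of Kdm5c.

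The 48 genes were 43.2% of the 111 that match the symbol rule, and 12.6% of all 21900 protein-coding genes had a listed site. Gene length accompanied this difference. Median length was 81.0 kb for the 48 genes with a site and 38.0 kb for the 63 without, and over all protein-coding genes it was 44.0 and 15.0 kb. Among genes longer than 50 kb, 35 of 57 chromatin genes (61.4%) and 1250 of 4945 protein-coding genes (25.3%) had a site. Inside gene bodies, chromatin genes held 12.4 sites per Mb and all protein-coding genes 3.34. The part of expression level in this was not tested. These counts use no library values.

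Role groups followed the family symbol alone. Remodellers, here all Chd, Smarc and Arid genes, held the most sites, 65 at 18 genes. This group also counts Arid5b, with 9 sites, and Arid5a, with 2, although other roles are given for them in this text. Methyltransferases held 20 at 6 genes, demethylases 18 at 8, acetyltransferases and coactivators 12 at 7, deacetylases and corepressors 11 at 5, and Brd and Tet genes 4 at 4. By family, 5 of 10 Chd genes held 40 sites, 7 of 10 Arid genes held 17, and 6 of 13 Smarc genes, subunits and ATPases of SWI/SNF and related complexes, held 8. All 3 Tet genes and both Ncor genes had sites, while the 4 Dnmt genes, which encode DNA methyltransferases and a regulator of them, had none in the files used here. Only 1 of 9 Brd genes had one.

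**Figure D1:**
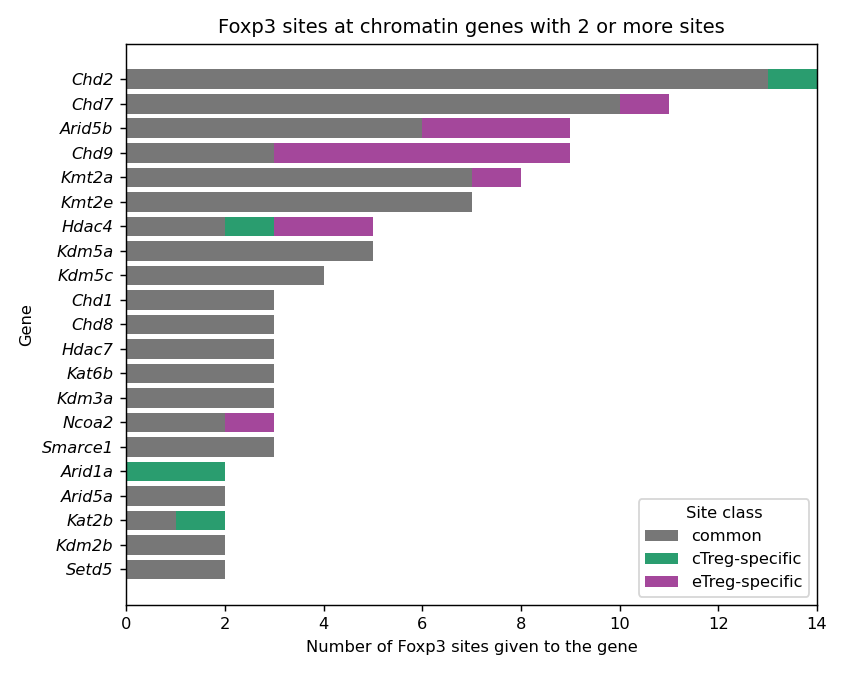
Number of listed Foxp3 sites (horizontal axis) at each chromatin gene with 2 or more sites, with bar segments for the authors' 3 site classes. Chd2 has 14 sites and Chd7 11, and Chd9 is the gene with the most eTreg-specific sites, 6 of its 9.

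The plot of sites per gene shows how unevenly the sites were spread, with Chd2 at rank 8 and Chd7 at rank 13 among 2760 genes with a site. Common sites made up 105 of the 130 (80.8%), against 69.7% of all listed sites. The 17 eTreg-specific sites were 13.1%, against 17.2%, and the 8 cTreg-specific sites were 6.15%, against 13.2%. All 18 demethylase sites and 19 of 20 methyltransferase sites were common. Chd9, a member of the Chd remodeller family, had 6 eTreg-specific and 3 common sites, and Arid5b, a DNA-binding cofactor of a histone demethylase, had 3 and 6. The 2 sites of Arid1a, a defining subunit of a SWI/SNF complex, were both cTreg-specific. No source used here gives how the classes were made.

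Most sites lay within genes: 110 of 130 (84.6%) were inside the gene body, against 67.3% of the sites with a gene, 4 lay within 5 kb of it and 16 farther away. Only 9 (6.92%) lay within 1 kb of a gene end, against 12.8% of the sites with a gene. These 9 were at Kat6a, Hdac5, Kdm5c, Kmt2a, Setd1b, Arid1b, Chd9, Smarcd1 and Smarce1. They differed from the rest in coverage: 7 of the 9 had reads in all 8 libraries, against 12 of the other 121. Over all listed sites with a gene the shares were 59.2% within 1 kb of a gene end and 11.5% elsewhere.

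Gene-end sites also had IgG values as high as the Foxp3 values. Their mean was 73.0 and 107 for WT Foxp3, 89.0 and 163 for R397W Foxp3, 85.0 and 121 for WT IgG, and 70.2 and 159 for R397W IgG. The 4 groups overlap. At the other 121 sites the mean was 39.5 and 22.9 in WT Foxp3 and 34.2 and 20.4 in R397W Foxp3, and the IgG libraries gave 21.8 and 16.7 for WT and 32.7 and 17.4 for R397W. There both WT Foxp3 libraries lay above both WT IgG libraries, and the R397W groups overlapped. The WT Foxp3 mean was above the WT IgG mean at 94 of these 121 sites (77.7%) and at 3 of the 9 gene-end sites, and over all listed sites with a gene these shares were 75.9% and 49.3%.

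**Figure D2:**
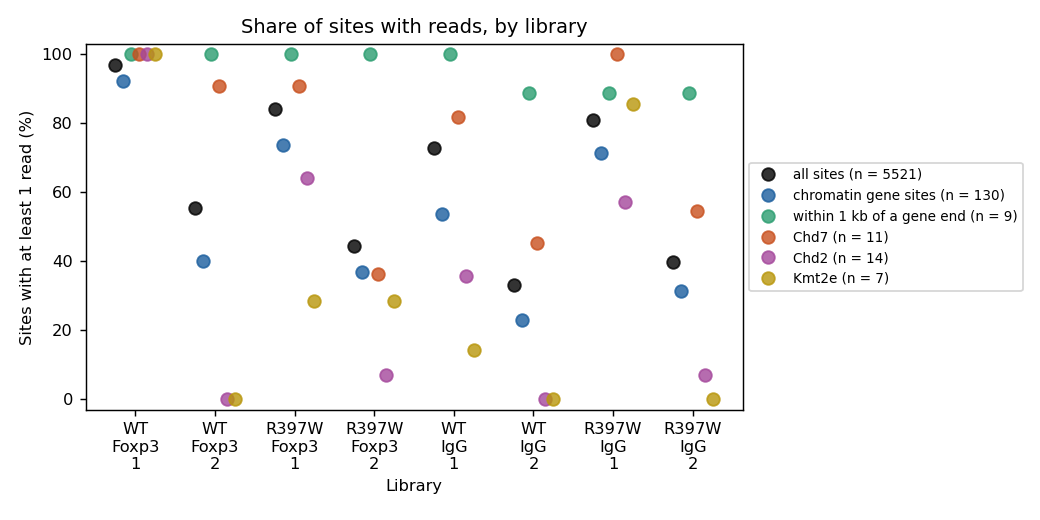
Percent of sites with at least 1 read (vertical axis) in each of the 8 libraries, for all listed sites, the chromatin gene sites, their gene-end sites and the sites of Chd7, Chd2 and Kmt2e. Coverage was lower in each library numbered 2 than in that numbered 1, for all sites and for the chromatin gene sites, and Chd2 and Kmt2e had no site with reads in WT Foxp3 library 2.

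Signal at the chromatin gene sites was lower than over the list, and coverage was sparse and uneven. The median over sites of the WT Foxp3 mean was 11.4 for the 130 sites and 25.6 for all sites. By role it was 57.3 for deacetylases and corepressors (range 6.67 to 517), 15.6 for remodellers (0 to 419.8) and 10.0 for demethylases (0 to 114). It was 8.88 for Brd and Tet genes (4.21 to 62.1), 8.08 for acetyltransferases and coactivators (0 to 108) and 6.41 for methyltransferases (0 to 167). These orders describe single sites and were not tested. Of the 130 sites, 120 (92.3%) had a read in WT Foxp3 library 1 and 52 (40.0%) in library 2, while the R397W Foxp3 libraries had reads at 96 and 48. In WT IgG the numbers were 70 and 30, and in R397W IgG 93 and 41. Over all listed sites, reads were found at 96.9% and 55.6% in WT Foxp3 and at 84.3% and 44.5% in R397W Foxp3. In IgG these shares were 73.0% and 33.2% for WT and 81.1% and 39.9% for R397W. At 69 sites (53.1%) only the first WT Foxp3 library had a read, against 41.6% of all sites. The plot of coverage by library shows that library number 2 had the lower share in each group. Reads in all 8 libraries were found at 19 of the 130 sites (14.6%), against 17.0% of all sites.

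Chd7, a remodeller of the CHD family known from CHARGE syndrome, was covered in both WT Foxp3 libraries at 10 of its 11 sites. Of these sites, 11 and 10 had reads in the WT Foxp3 libraries and 10 and 4 in R397W Foxp3. The mean over the 11 sites was 114 and 84.8 in WT Foxp3 and 68.9 and 24.8 in R397W Foxp3. In IgG it was 37.8 and 19.3 for WT and 82.3 and 40.2 for R397W. Both WT Foxp3 libraries thus lay above both R397W Foxp3 and both WT IgG libraries, and the R397W Foxp3 and R397W IgG libraries overlapped. Without the highest site the mean was 81.3 and 52.9 in WT Foxp3 and 66.4 and 23.2 in R397W Foxp3, and the genotypes then overlapped. An exact permutation test of 2 against 2 libraries cannot give a two-sided p below 0.33, so these means are a description.

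The highest Chd7 site (chr4:8811025-8811425, inside the gene, 57224 bp from its nearer end) gave 435 and 404 in WT Foxp3 and 94.5 and 40.6 in R397W Foxp3. The IgG values were 125 and 63.2 for WT and 140.3 and 245 for R397W. Both WT Foxp3 libraries were higher than the other 6 libraries, and both R397W Foxp3 libraries were below both R397W IgG libraries. R397W differed from WT by -2.74 ± 0.63 (SE) on the log2(value + 1) scale, and the means were 6.21-fold apart. In limma, fitted over all 5521 sites, the unadjusted p was 0.0039 and the adjusted p was 1. The recovered reads behind the 4 Foxp3 values were 359, 868, 36 and 63.

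Another Chd7 site (chr4:8805894-8806294, 62355 bp from the nearer gene end) gave 113 and 207 in WT Foxp3 and 97.1 and 0 in R397W Foxp3, and the IgG libraries gave 36.3 and 81.1 for WT and 199 and 14.6 for R397W. The genotypes did not overlap, but the R397W libraries were far apart. At a further one (chr4:8927529-8927929), which lay beyond the gene, 59280 bp from its end, WT Foxp3 gave 12.1 and 25.1 and R397W Foxp3 13.1 and 0, and both WT IgG libraries were at 0. The WT Foxp3 mean there was at least 10.7-fold higher than WT IgG, with 3 reads per library as the limit for IgG. R397W IgG was 20.4 and 0 at this site, and the limma adjusted p for WT Foxp3 against WT IgG was 0.99. Across the 8 Chd7 sites inside the gene the means were 137 and 106 in WT Foxp3 and 71.8 and 11.8 in R397W Foxp3, and across the 3 beyond it they were 52.2 and 27.2 and 61.3 and 59.3. R397W Foxp3 library 2 had no read at 7 of the 11 sites.

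Chd2, a remodeller of the same family, had 14 sites, all inside its 115095-bp gene, at distances of 886 to 12275 bp from one to the next. WT Foxp3 library 1 had reads at all 14, with values from 1.21 to 59.4. WT Foxp3 library 2 and WT IgG library 2 had no read at any of them. R397W Foxp3 had reads at 9 and 1 of the sites and R397W IgG at 8 and 1. The mean over the sites was 20.3 and 0 in WT Foxp3 and 15.9 and 4.56 in R397W Foxp3. In IgG it was 1.56 and 0 for WT and 18.7 and 2.27 for R397W. For Chd2 the difference between libraries of 1 group was thus larger than that between genotypes.

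**Figure D3:**
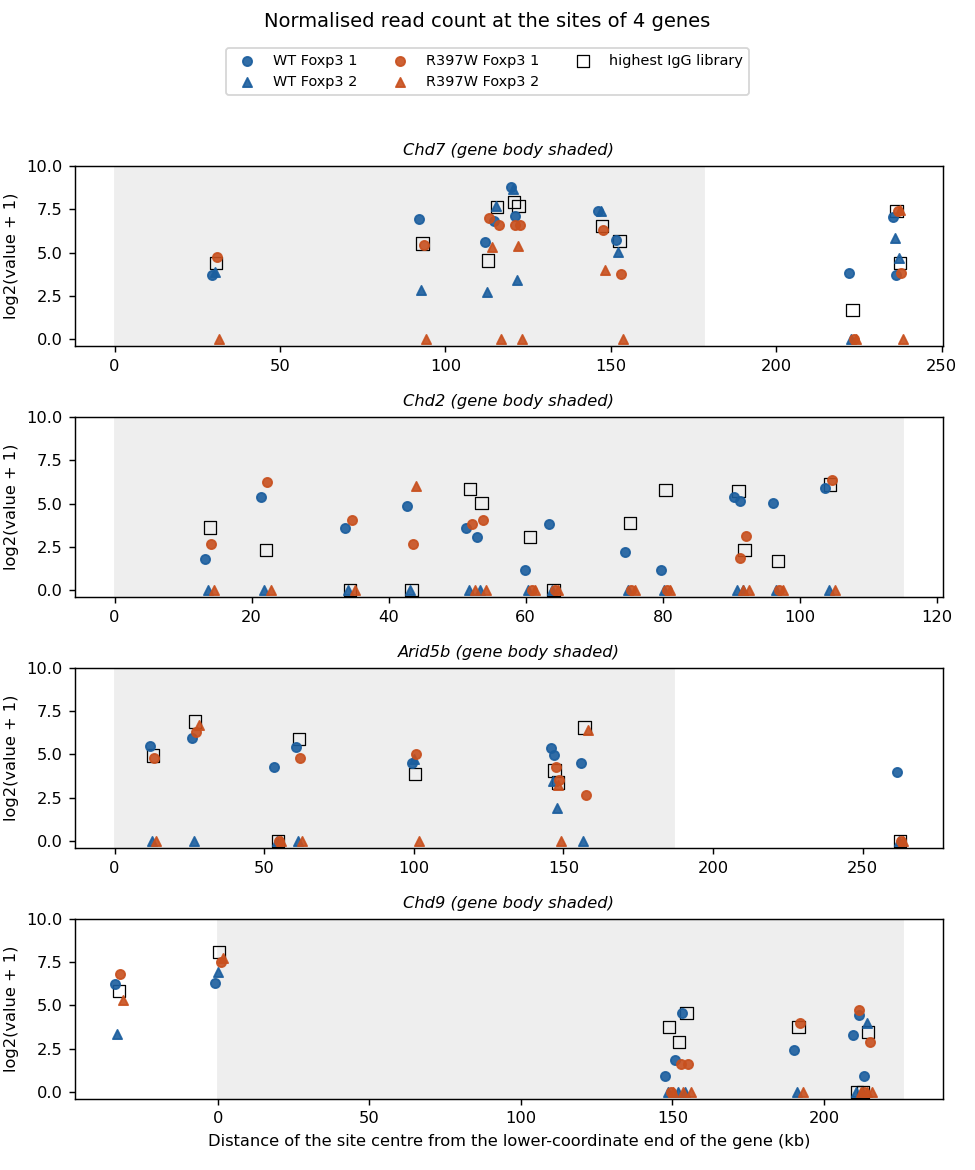
Values on the log2(value + 1) scale (vertical axis) at the sites of Chd7, Chd2, Arid5b and Chd9 by distance of the site centre from the lower-coordinate gene end in kb (horizontal axis), for the 4 Foxp3 libraries, with the highest of the 4 IgG libraries as an open square. Libraries are offset sideways a little so that points do not hide each other. The highest Chd7 site had 435 and 404 in WT Foxp3, above all IgG libraries, and the Chd2 sites were at 0 in WT Foxp3 library 2.

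The map of the 4 genes shows that Arid5b and Chd9 had few sites with reads in both WT Foxp3 libraries, 3 of 9 each. Arid5b had a mean of 32.7 and 4.29 in WT Foxp3 and 21.9 and 21.5 in R397W Foxp3, and the IgG libraries gave 12.8 and 13.3 for WT and 18.6 and 10.3 for R397W. Chd9 had 23.7 and 16.0 in WT Foxp3 and 38.0 and 27.9 in R397W Foxp3, and the IgG libraries gave 17.7 and 30.3 for WT and 17.9 and 13.8 for R397W. The Chd9 site at its start, within 465 bp of a gene end, held much of this, with 78.8 and 119.7 in WT Foxp3 and 181 and 212 in R397W Foxp3. Both R397W libraries were higher there, by 1.00 on the log2(value + 1) scale, and WT IgG, at 106 and 269, reached as high.

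The Arid5a site with the highest WT mean among the Arid genes lay outside the gene (chr1:36296608-36297008, 10925 bp away) and gave 201 and 146 in WT Foxp3 and 173 and 69.6 in R397W Foxp3, and the IgG libraries gave 243 and 129 for WT and 140.3 and 41.4 for R397W. The Foxp3 libraries of the genotypes overlapped, as did Foxp3 and IgG within each genotype. Among the Smarc genes, the sites of Smarcd1, an accessory SWI/SNF subunit, and Smarca4, the BRG1 ATPase, had higher R397W than WT values without overlap. So did a Smarce1 site. The single sites of Smarca5, Smarcc1 and Smarca2 differed the other way, at -1.79, -1.11 and -0.42 on the log2(value + 1) scale, none without overlap. Smarcd1 had 44.9 and 10.7 in WT Foxp3 and 84.0 and 191 in R397W Foxp3, and WT IgG was 64.1 and 110.0. Smarca4 had 30.3 and 29.6 against 69.1 and 149.9, with WT IgG at 68.5 and 119.7. At the Smarcd1 and Smarca4 sites WT IgG lay above WT Foxp3.

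Among genes grouped as methyltransferases by symbol, Kmt2a, which encodes the histone methyltransferase MLL, had 8 sites. Kmt2e, which shares the family symbol, had 7, all inside its gene, with 15882 bp between the first and the last centre. The Kmt2a promoter site (chr9:44881269-44881669), whose upstream bases are printed above, gave 83.7 and 250.5 in WT Foxp3 and 126 and 318 in R397W Foxp3, and the IgG libraries gave 178 and 313 for WT and 134 and 439 for R397W. In each group the second library was the higher, and the groups overlapped. A site inside Kmt2a (chr9:44873617-44874017, 7535 bp from a gene end) gave 34.0 and 17.2 in WT Foxp3 and 2.63 and 0 in R397W Foxp3, and both WT IgG libraries were at 0. WT Foxp3 was there at least 14.7-fold higher than WT IgG, with 3 reads per library as the limit for IgG, and R397W IgG was 2.26 and 0. The difference from WT IgG, 4.66 ± 2.57 (SE) on the log2(value + 1) scale, came with a limma adjusted p of 0.99. The R397W values rest on 1 read and 0 reads, and the limma adjusted p for the genotype was 1.

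Kmt2d, another histone lysine methyltransferase of this family, had 1 site (chr15:98871982-98872382) with 27.9 and 183 in WT Foxp3 and 137 and 69.6 in R397W Foxp3, and the IgG libraries gave 90.5 and 388 for WT and 83.7 and 151 for R397W. Its WT libraries were farther apart than the genotypes. The 7 Kmt2e sites were thinly covered: WT Foxp3 library 1 had reads at all 7 and library 2 at none, with a mean of 9.36 and 0, against 7.88 and 9.11 in R397W Foxp3. The IgG libraries gave 8.59 and 0 for WT and 15.2 and 0 for R397W. Setd1b, a further methyltransferase, had a site 914 bp from a gene end with 10.9 and 1.40 in WT Foxp3 and 21.0 and 37.4 in R397W Foxp3. Both its R397W IgG libraries were at 0, and WT IgG gave 7.93 and 23.9.

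Demethylase sites were all common. The Kdm5c promoter site (chrX:152232945-152233345) gave 109 and 119.7 in WT Foxp3 and 110.3 and 269 in R397W Foxp3, and the IgG libraries gave 106 and 0 for WT and 31.7 and 162 for R397W. Kdm5c is an X-linked lysine demethylase. Its WT Foxp3 libraries differed little from each other and lay just above WT IgG library 1, and the difference from WT IgG, 3.48 ± 1.52 (SE) on the log2(value + 1) scale, came with an adjusted p of 0.99 in limma, and WT IgG library 2 had no read. A second Kdm5c site, 16210 bp inside, had 2.43 and 0 in WT Foxp3 and 5.25 and 5.15 in R397W Foxp3, which are 2, 0, 2 and 8 reads. Values this low lie near the limit of 3 reads.

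Kdm7a, another lysine demethylase, gave 172 and 46.6 in WT Foxp3 and 118 and 0 in R397W Foxp3, and the IgG libraries gave 42.3 and 55.2 for WT and 106 and 70.0 for R397W (chr6:39205219-39205619, inside the gene). Kdm2b, a demethylase that links a Polycomb complex to CpG islands, had a site beyond its gene (chr5:122994273-122994673, 5203 bp away) with 142 and 19.1 in WT Foxp3 and 39.4 and 114 in R397W Foxp3, and the IgG libraries gave 18.5 and 0 for WT and 120.0 and 30.5 for R397W. In both, the genotypes overlapped. The 5 Kdm5a sites had no read in WT Foxp3 library 2 nor in R397W Foxp3 library 2, and a mean of 13.3 and 7.35 in the libraries numbered 1. Their mean in IgG was 0.13 and 0 for WT and 16.7 and 0.76 for R397W.

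Of the acetyltransferases, Kat8, the catalytic subunit of the MOF complexes, had the highest WT Foxp3 mean. Its site (chr7:127922698-127923098, 2940 bp from a gene end) gave 175 and 41.9 in WT Foxp3 and 52.5 and 0 in R397W Foxp3, and the IgG libraries gave 33.7 and 0 for WT and 22.6 and 0 for R397W. Kat6b, a MYST acetyltransferase, had a site (chr14:21523287-21523687) with 30.3 and 25.6 in WT Foxp3 and 0 in both R397W libraries, and IgG gave 16.5 and 0 for WT and 20.4 and 0 for R397W. The R397W mean was at least 5.70-fold lower than that of WT, with 3 reads per library as the limit, and the limma adjusted p was 1. Kat6a, its close relative, had a site 67 bp from a gene end (chr8:22859309-22859709) with 49.7 and 122 in WT Foxp3, 21.0 and 89.6 in R397W Foxp3 and 102 and 194 in WT IgG. R397W IgG gave 61.1 and 89.7. The IgG values there exceeded the Foxp3 values within each WT pair of equal number.

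Hdac7, a class IIa histone deacetylase expressed in T cells, had the highest site of all 130 (chr15:97825168-97825568, inside the gene, 19134 bp from an end). It gave 308 and 727 in WT Foxp3 and 299 and 334 in R397W Foxp3, and the IgG libraries gave 305 and 465 for WT and 113 and 354 for R397W. WT Foxp3 overlapped WT IgG there. R397W IgG library 1 was lower than both R397W Foxp3 libraries, and R397W IgG library 2 was higher than both. The other 2 Hdac7 sites were lower, with 65.5 and 43.3 and with 81.3 and 34.0 in WT Foxp3.

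Hdac5, another class IIa deacetylase, had 1 site over its promoter (chr11:102229963-102230363, centre 9 bp from the gene end). It gave 213 and 132 in WT Foxp3 and 86.6 and 70.9 in R397W Foxp3, and the IgG libraries gave 126 and 0.498 for WT and 181 and 239.9 for R397W. WT Foxp3 lay above R397W Foxp3 and above WT IgG without overlap, and R397W Foxp3 lay below R397W IgG. The WT Foxp3 value exceeded WT IgG by 3.62 ± 1.30 (SE) on the log2(value + 1) scale, with a limma unadjusted p of 0.0053 and an adjusted p of 0.89. The second WT IgG library had a single read there. R397W differed from WT by -1.09 ± 0.66 (SE), with an adjusted p of 1.

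Hdac4, also a class IIa gene, had 5 sites, of which 2 were eTreg-specific, 1 cTreg-specific and 2 common. Its mean was 54.8 and 24.1 in WT Foxp3 and 37.4 and 39.6 in R397W Foxp3. In IgG it was 37.1 and 5.11 for WT and 36.5 and 36.9 for R397W. The genotypes overlapped.

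The 3 Tet genes had 1 site each, of 3 different classes. The Tet3 site (chr6:83416430-83416830, common) gave 47.3 and 76.8 in WT Foxp3 and 126 and 95.4 in R397W Foxp3, and the IgG libraries gave 80.6 and 0 for WT and 74.7 and 0 for R397W. R397W was higher there without overlap, by 0.85 ± 0.78 (SE) on the log2(value + 1) scale. At Tet1 (chr10:62859021-62859421, cTreg-specific) WT Foxp3 was 8.42 and 0, R397W Foxp3 was 18.5 and 34.7, and WT IgG was 0 and 259. Both R397W IgG libraries were at 0 there. At Tet2 (chr3:133563441-133563841, eTreg-specific, 18505 bp outside the gene) WT Foxp3 was 23.4 and 0 and R397W Foxp3 14.7 and 0. The IgG libraries at Tet2 gave 0 and 0 for WT and 49.6 and 0.95 for R397W. WT Foxp3 library 2 was at 0 at both sites, and at Tet1 a WT IgG library was higher than every Foxp3 library.

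**Figure D4:**
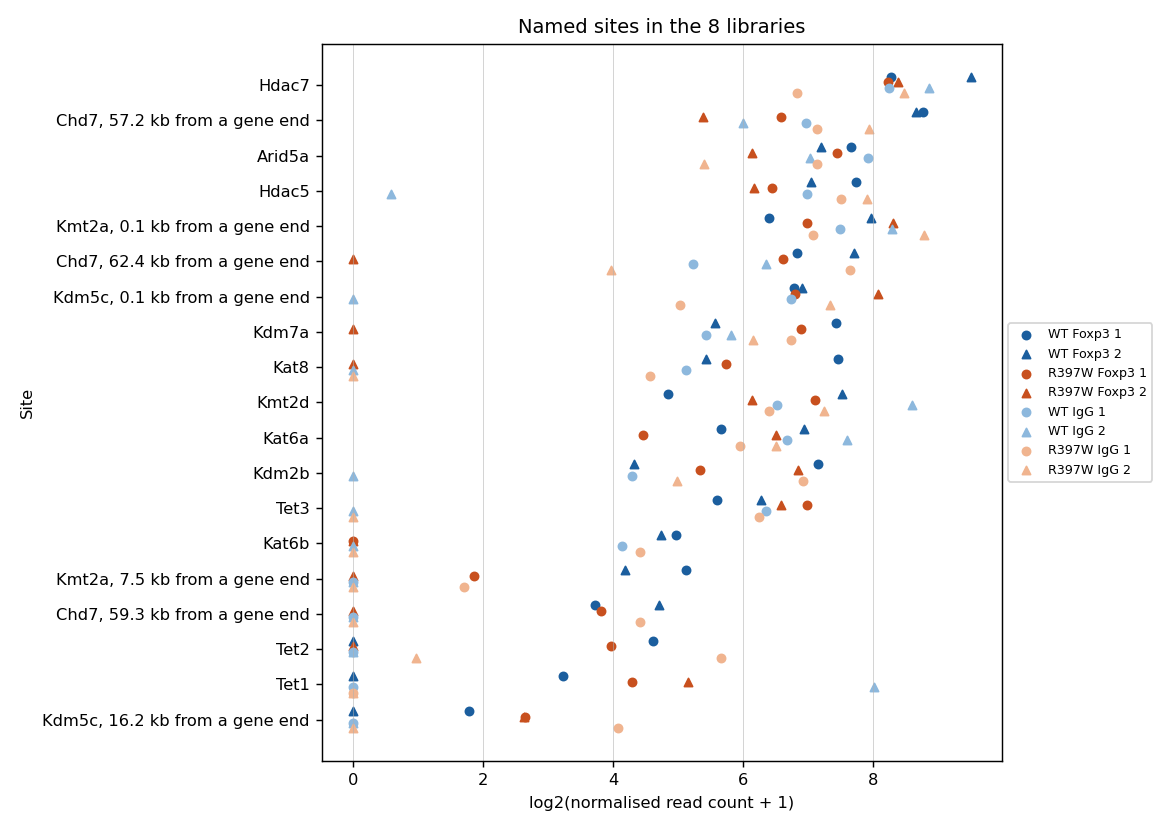
Normalised read counts on the log2(value + 1) scale (horizontal axis) of the 19 sites named by the rule (vertical axis, ordered by their WT Foxp3 mean) in the 8 libraries. The highest Chd7 site, 57.2 kb from a gene end, has both WT Foxp3 libraries (435 and 404) above the other 6, while at Hdac7 the Foxp3 and IgG libraries overlap.

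Between genotypes, no chromatin gene site was called. In the 4 Foxp3 libraries, limma with Benjamini-Hochberg adjustment over all 5521 sites called 0 sites at 0.05 (0%), and edgeR and DESeq2 on the recovered reads called 0 as well. At an unadjusted p under 0.05, limma had 1 chromatin gene site lower in R397W (0.769%), the highest Chd7 site, against 0.272% of all sites, and 0 higher, against 0.0543%. With edgeR and with DESeq2, 1 of the 130 sites had such a p, against 0.725% and 1.09% of all sites. The median R397W minus WT difference was -0.35 on the log2(value + 1) scale over the 130 sites and -0.39 over all sites. Of the 130 sites, 74 were below 0 (56.9%, against 60.4% of all sites) and 54 above. Without the lowest 25% of all listed sites, which left 75 of the 130, the medians were -0.015 and -0.27. Single libraries turned the direction: the median was 0.48 without WT Foxp3 library 1 (0.32 over all sites) and 0.34 without R397W Foxp3 library 2 (0.43 over all sites). It was -1.33 without WT Foxp3 library 2 and -1.46 without R397W Foxp3 library 1.

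Without WT Foxp3 library 2, limma called 26 of the 130 sites lower in R397W (20%, against 11.6% of all sites), at 17 genes. In that fit the lone WT library is assumed to vary like the R397W libraries. Both R397W Foxp3 libraries were at 0 at all 26, and the library left out was at 0 at 25 of them. These calls thus rest on WT Foxp3 library 1 alone.

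Where the libraries of the genotypes did not overlap, more chromatin gene sites were higher than lower in R397W. Both R397W Foxp3 libraries lay below both WT libraries at 7 of the 130 sites, against 12.6% of all sites, and above them at 14, against 6.43% of all. Chd7 had 4 of the 7 lower sites, beside Kat6b, Hdac5 and Kmt2a, and 1 of the 14 higher ones. The higher sites were spread over 13 genes: Kmt2a had 2, and Chd7, Kdm5c, Kdm2b, Ncoa2, Setd1b, Tet1, Tet3, Arid5b, Chd9, Smarca4, Smarcd1 and Smarce1 had 1 each. At the 19 sites with reads in all 8 libraries, R397W was lower at 3 and higher at 4, against 149 lower and 134 higher of 938 over the list. The difference between these counts and those of the list was not tested, nor was the part of coverage in it.

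**Figure D5:**
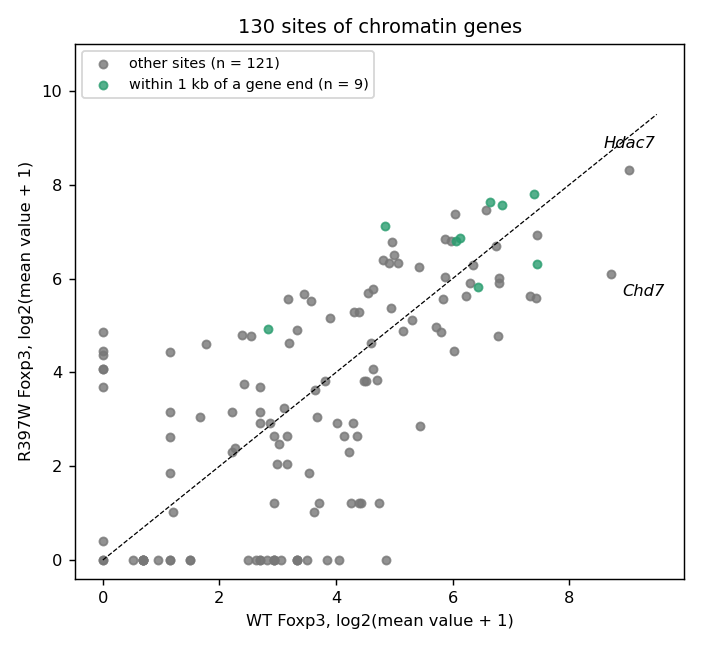
Mean of the 2 R397W Foxp3 libraries (vertical axis) against the mean of the 2 WT Foxp3 libraries (horizontal axis), both as log2(mean value + 1), for the 130 sites, with the dashed line marking equal values. The highest Chd7 site lies below the line (means 419.8 and 67.5), and 7 of the 9 gene-end sites lie above it.

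The plot of R397W against WT means shows the 29 sites without a read in either R397W Foxp3 library along its lower edge, and 9 sites without a read in either WT Foxp3 library. Over all listed sites these numbers were 725 and 152 of 5521. By role, the median R397W minus WT difference on the log2(value + 1) scale was -0.57 for remodellers, -0.52 for deacetylases and corepressors, -0.13 for demethylases, -0.10 for acetyltransferases and coactivators, 0.27 for Brd and Tet genes and 0.45 for methyltransferases. No site of any role was called, and these medians are descriptions of 4 to 65 sites.

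Against IgG, the WT Foxp3 mean was higher at most chromatin gene sites, but none was called. The median difference was 1.38 on the log2(value + 1) scale over the 130 sites and 1.27 over all sites. It was 1.499 between the libraries numbered 1 and 0 between those numbered 2. WT Foxp3 library 2 had no read at 78 of the 130 sites and WT IgG library 2 at 100. A median of 0 from such libraries therefore does not show equal signal. Without WT Foxp3 library 1 the median was 0 both over the 130 sites and over all sites, and without WT IgG library 2 it was 0.58 and 0.21. It was 2.49 without WT Foxp3 library 2. Limma called 4 of 5521 sites (0.0725%) and 0 of the 130. At an unadjusted p under 0.05, 3 of the 130 sites were higher (Hdac5, the highest Chd7 site and the Kdm5c promoter site), against 2.41% of all sites, and 0 were lower, against 0.163%. Both WT Foxp3 libraries lay above both WT IgG libraries at 18 of the 130 sites, against 19.5% of all, and below at 3, against 4.84%. The highest Chd7 site exceeded WT IgG by 2.23 ± 0.81 (SE), with an adjusted p of 0.97. Without WT Foxp3 library 2, limma called 8 of the 130 sites (3.42% of all sites), and without WT IgG library 1 it called 1 (0.525% of all). Without WT Foxp3 library 1 it called none of the 130 (0.616% of all). EdgeR and DESeq2 called 0, and each had 1 of the 130 sites at an unadjusted p under 0.05, against 0.761% and 3.57% of all sites.

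For R397W Foxp3 against R397W IgG, the median difference was 0.06 on the log2(value + 1) scale over the 130 sites and 0.05 over all sites. Its sign depended on single libraries: it was -0.85 without R397W Foxp3 library 1 and -0.35 without R397W IgG library 2, but 0.69 without R397W Foxp3 library 2 and 1.00 without R397W IgG library 1. R397W Foxp3 lay above IgG without overlap at 13 sites, against 10.4% of all, and below at 5, against 7.84%. Limma called 0 sites (0%) and had 0 of the 130 at an unadjusted p under 0.05 in either direction, against 0.906% higher and 0.561% lower over the list. EdgeR and DESeq2 called 0, with 1 and 3 of the 130 sites at an unadjusted p under 0.05, against 0.362% and 1.47% of all sites. The R397W mean was above the IgG mean at 62 of the 130 sites (47.7%, against 51.0% of all sites), and the WT mean at 97 (74.6%, against 72.8%).

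Whether Foxp3 over IgG differed between genotypes was then tested itself. Its median was -1.16 on the log2 scale over the 130 sites and -1.02 over all sites, and limma called 0 sites (0%). The median was -1.19 from the libraries numbered 1 and 0 from those numbered 2. Each library numbered 2 had no read at 78 to 100 of the 130 sites, so a 0 here does not show equal signal. Without WT Foxp3 library 1 the median was 0, as it was over all sites. It lay between -0.28 and -0.22 without R397W Foxp3 library 2, WT IgG library 2 or R397W IgG library 1, and at -2.20 and -2.13 without WT Foxp3 library 2 and R397W Foxp3 library 1. At an unadjusted p under 0.05, 3 of the 130 sites were lower in R397W, against 1.38% of all sites: the highest Chd7 site, the Hdac5 site and a Hdac4 site (chr1:92064304-92064704). The Hdac4 site gave 163 and 58.7 in WT Foxp3 and 108 and 20.0 in R397W Foxp3, which overlapped, and the IgG libraries gave 89.9 and 0 for WT and 140.3 and 153 for R397W. At the highest Chd7 site the difference was -3.79 ± 1.14 (SE), with an unadjusted p of 9.3e-04 and an adjusted p of 0.84. EdgeR and DESeq2 called 0, with 2 and 5 of the 130 sites at an unadjusted p under 0.05, against 0.543% and 1.97% of all sites. Foxp3 lay above IgG in both WT pairs of equal number and below it in both R397W pairs at 5 of the 130 sites, against 4.31% of all, and the reverse held at 2, against 1.47%. Without WT Foxp3 library 2, limma called 6 of the 130 sites (3.3% of all sites), and without WT IgG library 1 none (0.0181% of all).

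The share of reads in chromatin gene sites did not separate the genotypes. These sites held 1.66% and 2.05% of the listed reads in WT Foxp3 and 1.74% and 2.13% in R397W Foxp3, and the IgG libraries gave 1.72% and 2.12% for WT and 1.81% and 2.12% for R397W. In each group the library numbered 2 had the higher share, and all groups overlapped. The 5 sites with the most reads in a library held 21.0% to 28.8% of its chromatin gene reads in libraries numbered 1. In those numbered 2 such sites held 34.3% to 53.7%. The log2 ratio of reads in chromatin gene sites to those in all other sites was higher in R397W by 0.06 in Foxp3 libraries, with a pooled SD of 0.21 between libraries, and by 0.04 in IgG libraries, with 0.19. Within the cTreg-specific and eTreg-specific sites alone the Foxp3 difference was 0.97 and 0.64, on 8 and 17 sites.

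A list of 100 other writers, readers, erasers and remodellers, outside the symbol rule, had 59 sites at 29 genes, of which 53 were common. Ash1l, a histone methyltransferase, had 7 of them, Nsd3 6 and Nsd1, likewise methyltransferases, 5. Jarid2, a partner of the Polycomb methyltransferase complex, had 4. Limma called 0 of the 59 sites between genotypes, and R397W was lower without overlap at 3 and higher at 4, against 12.6% and 6.43% of all sites. The median R397W minus WT difference was -0.13 on the log2(value + 1) scale, against -0.35 for the 130 sites and -0.39 over all sites. The median WT Foxp3 minus IgG difference was 0.89, against 1.38 and 1.27.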

How the data were processed

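The deposited files give 1 normalised signal value per site and library for 3 site classes, which the authors' file names call spike-in normalised. Tools listed in the submitters' processing notes, without roles, are DiffBind 3.12.0 and Bowtie2 2.5.2, and the builds are mm10 and dm6. Coordinates were read as mm10. No source used here gives the calling of the sites. Values above 0 were whole multiples of 1 step per library and file (100%, tolerance 0.01), so reads were recovered by division. Each class was scaled separately.

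All 5521 sites were fitted with limma 3.58.1 in R 4.3.3 on log2(value + 1), two-sided, with a trended empirical Bayes prior. Sites were called at a Benjamini-Hochberg adjusted p under 0.05 over the whole list. The genotype comparison used the 4 Foxp3 libraries, and the comparisons with IgG used all 8. EdgeR 4.0.16 and DESeq2 1.42.0 on recovered reads, other pseudocounts, filters and scalings, a replicate block and leaving out each library were alternatives. Named in full were, in each of 6 role groups, the 2 sites with the highest WT Foxp3 mean, the site with the largest genotype difference and that with the largest WT Foxp3 over IgG difference among sites without overlap, the 2 highest gene-end sites, and genes with 4 or more sites. Single sites of Smarcd1, Smarca4, Setd1b, Chd9, Hdac4 and 2 further ones of Hdac7 were added after their values were seen. The members and lists were chosen with earlier results of these data known. Scripts were tested on simulated data.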

Additional observations from a re-analysis of the deposited data

Results flagged for a closer look

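At 5 of the 130 chromatin gene sites (3.85%), against 238 of all 5521 (4.31%), Foxp3 lay above IgG in both WT pairs of libraries with the same number and below IgG in both R397W pairs. Foxp3 over IgG in R397W minus that in WT was -5.02 ± 1.83 (SE) on the log2 scale at the Hdac5 promoter site, -3.97 ± 2.59 (SE) at a Chd7 site 62355 bp inside the gene (chr4:8805894-8806294) and -3.79 ± 1.14 (SE) at the highest Chd7 site. At the other two it was -5.00 ± 2.46 (SE) at a Hdac4 site (chr1:92064304-92064704) and -3.18 ± 4.25 (SE) at another Chd7 site (chr4:8812326-8812726). The opposite pattern was found at 2 of the 130 sites and at 81 of all, with 2.29 ± 1.31 (SE) at a Chd9 site and 5.32 ± 2.89 (SE) at the Smarca4 site. Tested with limma over all sites, the adjusted p-value was 0.84 at the highest Chd7 site and 1 at the other 6, so none passed. The labels do not say that equal numbers share an origin, and WT IgG library 2 had a single read at the Hdac5 site.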

How the results depend on the processing

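No chromatin gene site was called under any alternative with all libraries. Leaving out 1 library gave 0 to 26 called sites for R397W against WT, 0 to 8 for WT Foxp3 against IgG, 0 to 6 for the difference between them and 0 for R397W Foxp3 against IgG, the highest each time without WT Foxp3 library 2. Medians on the log2 scale then ranged from -1.46 to 0.48 for R397W against WT, 0 to 2.49 for WT Foxp3 against IgG, -0.85 to 1.00 for R397W Foxp3 against IgG and -2.20 to 0 for the difference between genotypes. The limits of 0 came without WT Foxp3 library 1, where the remaining WT Foxp3 library had no read at 78 of the 130 sites. The median for R397W against WT (-0.35) was -0.16 with a pseudocount of 5, -0.015 without the lowest 25% of sites and -0.55 with IgG subtracted. That for R397W Foxp3 against IgG (0.06) was 0.069 with a pseudocount of 0.5, 0 with 5, 0.45 without the lowest 25%, 0 with equal totals, 0.043 with 1 factor per library, and 0 in edgeR and 0 in DESeq2. The median difference between genotypes in Foxp3 over IgG was -0.24 without the lowest 25%. That filter left 75 of the 130 sites in R397W against WT and 70 in the comparisons with IgG. The ratio of reads (0.06) was 0.97 in cTreg-specific and 0.64 in eTreg-specific sites alone, and -0.09 to 0.21 with 1 library left out. Over sites with reads in all 8 libraries it was -0.13. The causes were not tested.

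Of the 19 sites named by the rule, 3 changed direction in other settings: Kdm2b (0.35) was -0.059 in edgeR, -0.060 in DESeq2 and -2.44 with IgG subtracted, Kmt2d (0.43) was -0.045 and -0.043 in edgeR and DESeq2, and Arid5a (-0.64) was 2.90 with IgG subtracted. With 1 library left out, 9 changed direction, with ranges of -1.84 to 0.20 for Kat6a, -1.20 to 0.038 for Hdac7, -1.07 to 1.76 for Kdm2b, -0.051 to 1.23 for the Kdm5c promoter site, -6.50 to 0.39 for Kdm7a, -0.32 to 1.25 for the Kmt2a promoter site, -0.90 to 1.77 for Kmt2d, -2.62 to 1.98 for Tet2 and -1.29 to 0.014 for Arid5a. The highest Chd7 site ranged from -3.34 to -2.14. Single sites described beyond these 19 were not run in other settings.

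The libraries share only a number, and the deviations of equal numbers correlated at 0.17 between WT and R397W Foxp3 libraries and at 0.04 and 0.14 between Foxp3 and IgG of WT and R397W. With the replicate block, 0 sites were called in each comparison, and the medians were -0.35, 1.38, 0.06 and -1.16. The ratio of reads differed by 0.07 between the libraries numbered 1 and by 0.06 between those numbered 2. A site with no read could hold a value of up to 1.15 to 7.88.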
